A study of Mus musculus with 21 samples.

Results

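The transcript levels described here are those of Cbx1, Cbx3, Cbx5, Trim28, Atrx and Daxx, the 3 genes of the HP1 proteins and 3 genes whose products work with heterochromatin. The genes were chosen by name, and they are 6 of the 37620 rows of the deposited RNA-seq table. All libraries came from germ cells that had been enriched by enzymatic digestion from the testes of wild-type C57BL/6J (B6) mice at 12 days after birth. The study used this RNA to set gene expression beside the places where PRDM9, the protein that marks meiotic recombination hotspots, binds in chromatin. There were 4 replicates, labelled 186wt, 343wt, 444wt and 456wt and called sample numbers below, with 3 libraries each. No sample number was treated and none carries another genotype, so the comparisons are of replicates of one condition. The sources used here do not state whether the 3 libraries of a sample number share one RNA preparation or one animal, and the p-values below then measure only the spread between these libraries, which may be technical.

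Heterochromatin is the compact, mostly silent part of the genome, and its nucleosomes carry methyl groups on lysine 9 of histone H3. HP1 proteins read this mark through a chromodomain and bind partner proteins through a chromoshadow domain, and they also bring in enzymes that write more of the mark. Cbx5 encodes HP1α, Cbx1 encodes HP1β and Cbx3 encodes HP1γ, of which HP1γ is also found in euchromatin. TRIM28, also named KAP1, is recruited to DNA by zinc finger proteins with a KRAB domain and in turn recruits the methyltransferase SETDB1 and HP1. ATRX is a chromatin remodeller encoded on the X chromosome, and DAXX is its partner, a chaperone that deposits the histone variant H3.3 at repeats and telomeres. In male meiosis HP1 proteins and ATRX are known from pericentric heterochromatin and from the silenced sex chromosomes.

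The expression values were FPKM, which are fragments scaled by transcript length and by library depth and may therefore be set side by side between genes. The step between low values put the depth of a library at 12.99 to 18.09 M fragments (M, mega), with a median of 15.04 M. The enriched cells held transcripts of germ cells and of somatic cells. Of 12 markers of meiotic spermatocytes found in the table all 12 reached 0.1 FPKM, and their summed level was 491.8 FPKM in 186wt, 373.7 in 343wt, 620 in 444wt and 439.2 in 456wt. All 8 spermatogonial markers were also present, at summed levels of 575.8, 601.9, 789.8 and 720.5 FPKM in the same order. All 9 markers of Sertoli cells, the somatic support cells of the tubule, were detected as well, and their summed level was 4092, 4235, 2377 and 2538 FPKM, led by Clu. In a bulk sample fewer cells of a type and less RNA per cell cannot be told apart.

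The 3 HP1 genes code for proteins of like size, with 185 codons in Cbx1, 183 in Cbx3 and 191 in Cbx5. Over aligned coding sequences, Cbx1 and Cbx5 were identical at 66% of columns, Cbx1 and Cbx3 at 64.8% and Cbx3 and Cbx5 at 60.3%. The stretch of 60 coding bases shown next lies in the chromodomain region, and it is printed because it shows how far the 3 genes differ where they are alike. Capitals mark the bases that are not the same in all 3 genes, and 41 of the 60 bases are shared. In each gene an intron of the annotation falls within the window, after base 35. The coordinates are those of NCBI build 37 (mm9). The Cbx1 window is at chr11:96662227-96662261 and chr11:96662743-96662767 on the plus strand, the Cbx3 window at chr6:51425338-51425372 and chr6:51428437-51428461 on the plus strand, and the Cbx5 window at chr15:103043503-103043537 and chr15:103036085-103036109 on the minus strand.
Cbx1: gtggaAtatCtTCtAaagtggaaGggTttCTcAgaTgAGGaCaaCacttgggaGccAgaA
Cbx3: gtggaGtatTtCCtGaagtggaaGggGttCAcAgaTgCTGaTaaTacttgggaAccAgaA
Cbx5: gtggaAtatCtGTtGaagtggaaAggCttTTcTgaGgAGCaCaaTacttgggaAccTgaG
No pair of the HP1 genes shared a stretch of 100 bases at 95% identity in its annotated transcripts.

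Cbx3 was the one member with near-identical copies elsewhere in the genome. By alignment of annotated transcripts (at least 100 bases at 95% identity or more), 7 other genes matched Cbx3, whereas 0 genes matched any of the other 5 members. Of the 7 copies 3 are annotated as protein-coding and the rest as pseudogenes. The next lines show coding bases 121 to 220 of Cbx3 with the matching bases of copies, because they show how far the copies resemble Cbx3. Reads with 2 or more mismatches were removed by the authors. A read of exactly these bases could thus match Cbx3 and a copy equally well only for Gm6984 and Gm10068. Capitals mark bases that differ from Cbx3.
Cbx3: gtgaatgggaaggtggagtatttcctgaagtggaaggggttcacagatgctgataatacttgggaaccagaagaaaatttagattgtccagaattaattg
Gm6984: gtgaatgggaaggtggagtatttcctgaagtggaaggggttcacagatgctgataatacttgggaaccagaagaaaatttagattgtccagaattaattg
Gm10068: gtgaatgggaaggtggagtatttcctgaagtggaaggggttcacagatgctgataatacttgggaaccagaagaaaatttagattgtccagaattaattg
Gm13118: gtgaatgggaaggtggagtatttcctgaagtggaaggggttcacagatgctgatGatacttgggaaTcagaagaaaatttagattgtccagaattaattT
Gm5196: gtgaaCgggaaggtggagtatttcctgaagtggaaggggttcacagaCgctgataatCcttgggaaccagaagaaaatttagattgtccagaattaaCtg
Gm5792: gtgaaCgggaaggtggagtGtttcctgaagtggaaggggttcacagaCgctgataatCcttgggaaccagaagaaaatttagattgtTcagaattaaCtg
The Cbx3 bases lie in 2 exons, at chr6:51425326-51425372 and chr6:51428437-51428489 on the plus strand of mm9. The copies have no intron here. Gm6984, at chr14:74355139-74355238 on the minus strand, and Gm10068, at chr1:58703652-58703751 on the plus strand, had 0 differences from Cbx3 in these bases. Gm13118 (chr4:144088632-144088731, minus strand) had 3 differences, A175G, C187T and G220T, counted from 1 at the A of the Cbx3 start codon. Gm5196 (chr13:66965580-66965679, plus strand) had 4, namely T126C, T168C, A178C and T218C, and Gm6917 on the same chromosome had the same 4. Gm5792 (chr13:65517650-65517749, plus strand) had 6 and Gm6901 had 5.

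Among the distinct stretches of 100 bases in the annotated Cbx3 transcripts, 44.7% were within 1 difference of another gene and 40.8% were identical to one. For the other 5 members the share was 0%. Seen from the copies, 93.9% of the stretches of Gm6984 and 73.4% of those of Gm10068 were within 1 difference of Cbx3. The share was 16.6% for Gm5196, 12.6% for Gm6917, 3.78% for Gm5792 and for Gm6901, and 0% for Gm13118. The authors kept all best alignments of a read, removed reads with 2 or more mismatches and let RSEM divide shared reads among transcripts. Under that division nearly all of the signal was placed on Cbx3. The summed FPKM of the 7 copies was 2.3 ± 0.432 (SD, n = 4), which is 2.09% ± 0.191 of Cbx3. The copy with the highest level, Gm10068, had 0.572 ± 0.118 FPKM (SD, n = 4), and Cbx3 was 193-fold above it. Gm5196 followed at 0.435 ± 0.212 FPKM, Gm5792 at 0.413 ± 0.121, Gm6984 at 0.378 ± 0.192, Gm6917 at 0.257 ± 0.148 and Gm6901 at 0.216 ± 0.0595. Gm13118 was listed at 0 in 11 of the 12 libraries. The levels of the copies that share such stretches are uncertain, because reads that match Cbx3 equally well can be counted there. This concerns Gm6984 and Gm10068 most. How much of the value of Cbx3 itself came from reads of its copies was not tested.

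**Figure D1:**
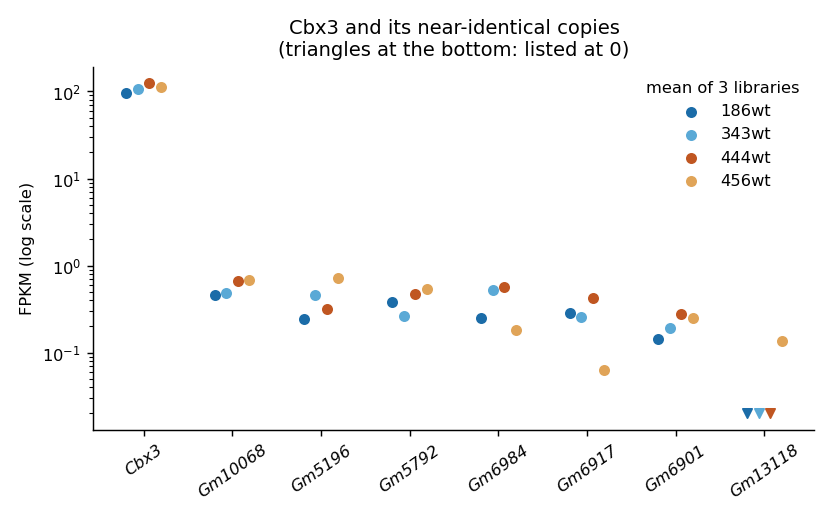
FPKM on a log scale of Cbx3 and its 7 near-identical copies, 1 point per sample number (mean of 3 libraries), with triangles for values listed at 0. Cbx3 lies between 94.96 and 124.8 FPKM, and no copy reaches 1 FPKM.

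Trim28 was the member with the highest transcript level. Its level was 191.4 FPKM in 186wt, 180.4 in 343wt, 223.8 in 444wt and 206.7 in 456wt, with a mean of 200.6 ± 18.9 FPKM (SD, n = 4). A lower mean was found for 98.92% of the 22337 protein-coding rows, and among all rows of the table Trim28 was at rank 261. The gene is compact, at chr7:13609501-13616384 on the plus strand of mm9.

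Cbx3, at chr6:51420359-51433703 on the plus strand, was the next. It had 94.96 FPKM in 186wt, 108.1 in 343wt, 124.8 in 444wt and 112.4 in 456wt, with a mean of 110.1 ± 12.3. Its rank was 612. Trim28 exceeded Cbx3 in 12 of 12 libraries, by 1.825-fold (log2 difference 0.87 ± 0.11, SD, n = 4 sample numbers).

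Daxx and Cbx1 came next and could not be put in order. Daxx (chr17:34046359-34052534, plus strand) had 57.15, 58.36, 46.78 and 45.99 FPKM in 186wt, 343wt, 444wt and 456wt, with a mean of 52.07 ± 6.59. Cbx1 (chr11:96650441-96669954, plus strand) had 50.65, 49.22, 52.94 and 51.08 FPKM in the same order, with a mean of 50.97 ± 1.54. Daxx was the higher of the pair in 186wt and 343wt and the lower in 444wt and 456wt, and the log2 difference of 0.02 ± 0.22 had an exact permutation p of 0.875 (two-sided sign flips over 4 sample numbers).

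Atrx and Cbx5 had the lowest levels of the 6 genes. Atrx spans a long stretch of the X chromosome (chrX:102992954-103124736, minus strand), and it had 30.84, 32.67, 30.03 and 25.63 FPKM in 186wt, 343wt, 444wt and 456wt, with a mean of 29.79 ± 2.99. Cbx5 (chr15:103021975-103070247, minus strand) had 20, 19.84, 22.74 and 22.87 FPKM, with a mean of 21.36 ± 1.67. Cbx1 exceeded Atrx in 12 of 12 libraries, with a log2 difference of 0.78 ± 0.17. Atrx exceeded Cbx5 in 11 of 12 libraries, with a log2 difference of 0.48 ± 0.25, and the gap was narrowest in 456wt at 0.16. Cbx3 exceeded Daxx in 12 of 12 libraries, with a log2 difference of 1.08 ± 0.32. Apart from Daxx and Cbx1, each pair of neighbours kept its order in 4 of 4 sample numbers, for which the exact permutation p was 0.13, the smallest that 4 paired values can give.

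**Figure D2:**
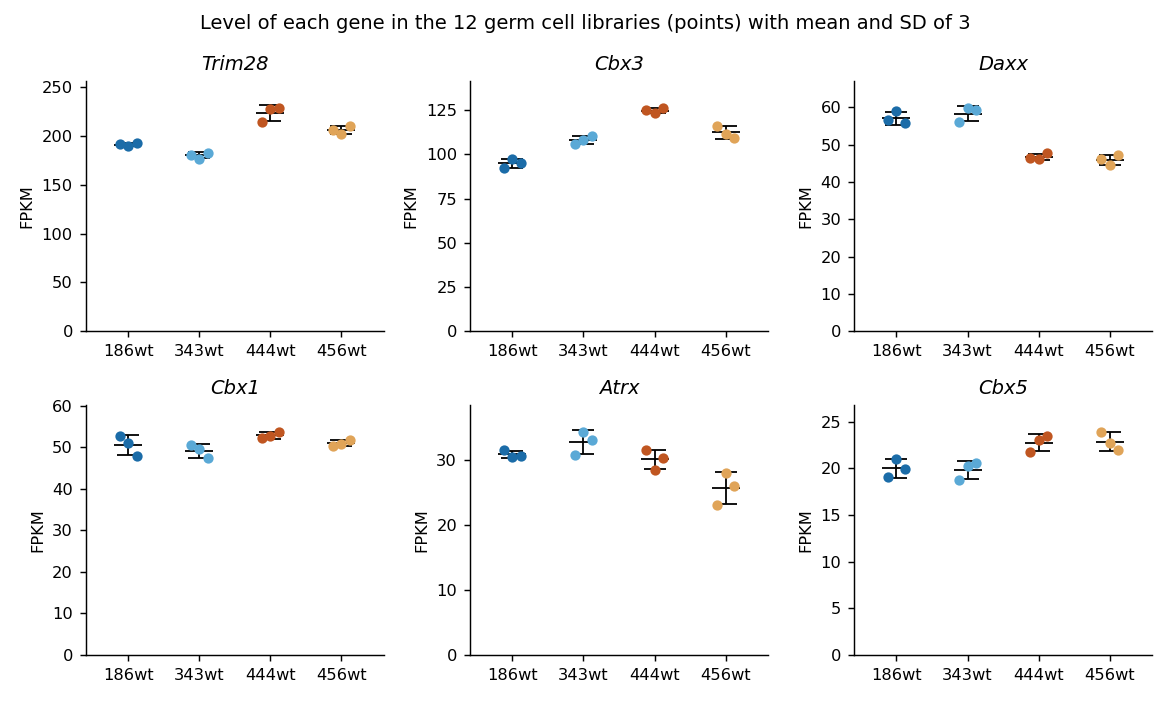
FPKM of each of the 6 genes in the 12 libraries, 3 points per sample number, with black bars for the mean and SD of 3 libraries, and axes that start at 0. Trim28 lies near 200 FPKM and Cbx5 near 20. Daxx is lower in every library of 444wt and 456wt than in every library of 186wt and 343wt.

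All 6 genes were therefore transcribed well above the typical gene, since even Cbx5 was above 77.43% of protein-coding rows, Atrx above 83.66%, Cbx1 above 91.84%, Daxx above 92.05% and Cbx3 above 97.4%. How much their levels varied from one sample number to the next differed between the 6 genes. The coefficient of variation over the 4 sample numbers was 3.01% for Cbx1, 7.8% for Cbx5, 9.42% for Trim28, 10% for Atrx, 11.2% for Cbx3 and 12.7% for Daxx. Over the 14348 genes that averaged 1 FPKM or more the median was 13.5%, so all 6 lay below it, Daxx only slightly. Genes at the levels of the members were not compared apart. Between libraries of one sample number the SD was 2.43% of the mean for Cbx3 and for Trim28, 3.01% for Daxx, 3.09% for Cbx1, 4.55% for Cbx5 and 5.83% for Atrx. The former is the spread of means of 3 libraries and the latter that of single libraries, so these figures are not directly comparable. The depth behind these values ranged from 258.9 fragments per kilobase, in the Cbx5 library with the fewest, to 3525 in the Trim28 library with the most.

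HP1γ made up the larger part of the HP1 transcripts in each sample number. The 3 HP1 genes summed to 165.6 FPKM in 186wt, 177.2 in 343wt, 200.5 in 444wt and 186.3 in 456wt. Cbx3 took 57.3%, 61%, 62.3% and 60.3% of the sum in that order, with a mean of 60.2% ± 2.09 (SD, n = 4). Cbx1, for HP1β, took 30.6%, 27.8%, 26.4% and 27.4%, with a mean of 28% ± 1.79. Cbx5, for HP1α, took 12.1%, 11.2%, 11.3% and 12.3%, with a mean of 11.7% ± 0.531. Over single libraries the share of Cbx3 ran from 56.2% to 62.8%, that of Cbx1 from 26.3% to 32.2% and that of Cbx5 from 10.7% to 12.6%, so the 3 ranges did not overlap. A share within a library does not move with the scaling of that library. It is a share of transcripts and not of protein.

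**Figure D3:**
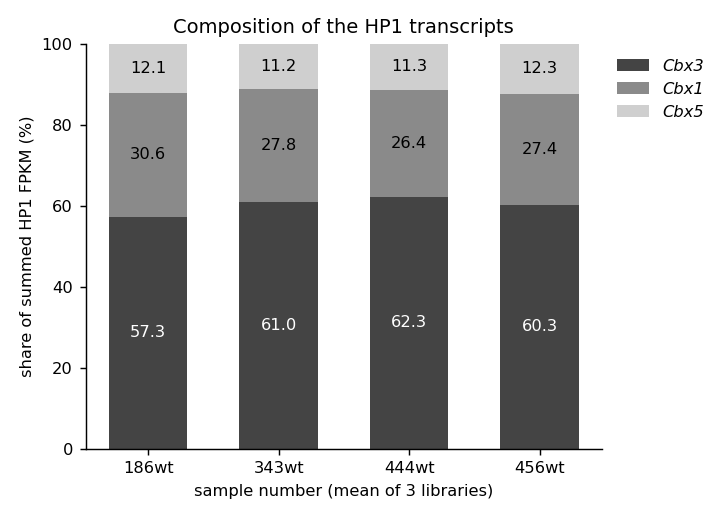
Share of Cbx3, Cbx1 and Cbx5 in their summed FPKM, in percent, for each sample number (mean of 3 libraries). Cbx3 takes between 57.3% and 62.3%, and the 3 genes keep the same order in each bar.

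Of the 6 members 3 start close to a neighbour that is read the other way. Cbx3 and Hnrnpa2b1 start 465 bases apart, and Cbx5 and Hnrnpa1 start 697 bases apart. Both neighbours encode hnRNP proteins, which bind nascent RNA, and both were far above their HP1 partner. Hnrnpa2b1 had 404.7 ± 13.8 FPKM and Hnrnpa1 had 428.1 ± 33.4 (SD, n = 4). Hnrnpa2b1 had 407.1 FPKM in 186wt, 413.6 in 343wt, 413.5 in 444wt and 384.6 in 456wt, whereas Cbx3 was lowest in 186wt. Daxx and the noncoding transcript BC051226 start 96 bases apart, and BC051226 had 20, 16.78, 18.61 and 16.92 FPKM in 186wt, 343wt, 444wt and 456wt. The bases between this last pair are shown in the direction of Daxx, at chr17:34046263-34046358 of mm9, because one short stretch separates the starts of both genes. Capitals mark the 14 CG pairs.
Daxx and BC051226: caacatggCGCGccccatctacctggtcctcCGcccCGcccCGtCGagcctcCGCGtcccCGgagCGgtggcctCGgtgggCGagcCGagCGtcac
G and C made up 76% of these bases. No exon of a member overlapped an exon of another gene in the annotation.

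The sample numbers were compared by limma on log2(FPKM + 0.1), over 20795 genes that averaged 0.1 FPKM or more and with Benjamini-Hochberg adjustment over all of them. An F-test asked whether a gene differed among the 4 sample numbers at an adjusted p under 0.05. Of all genes tested 58.2% passed, so a difference between these replicates was the common case, and 5 of the 6 members passed. Among the genes that averaged 1 FPKM or more, as each member did, 75.8% passed. Each of the 6 had a narrower range between its highest and lowest sample number than the median gene, for which the log2 range was 0.55. The members that passed thus differed between sample numbers by more than the spread between libraries, and by less than most genes tested did on the deposited scale. The genes tested include those that averaged under 1 FPKM, and ranges were not compared among genes at the levels of the members.

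Among the HP1 genes, Cbx3 had the widest range. Its libraries had 92.15, 97.46 and 95.26 FPKM in 186wt, 105.73, 108.16 and 110.42 in 343wt, 124.92, 123.21 and 126.35 in 444wt, and 116.33, 111.83 and 109.05 in 456wt. The libraries of 186wt lay below all others and those of 444wt above all others, while 343wt and 456wt overlapped. Cbx3 was 1.315-fold higher in 444wt than in 186wt (log2 difference 0.39 ± 0.03, SE, F-test adjusted p = 2.1e-06, limma).

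Cbx5 moved by less. Its libraries had 19.03, 21.03 and 19.94 FPKM in 186wt, 18.71, 20.27 and 20.55 in 343wt, 21.73, 23.07 and 23.42 in 444wt, and 23.94, 22.69 and 21.97 in 456wt. Each library of 444wt and 456wt was above each library of 186wt and 343wt. The log2 difference between 456wt and 343wt was 0.20 ± 0.05 (SE), and the limma F-test gave an adjusted p of 0.00546.

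Cbx1 did not pass the F-test. Its libraries had 52.79, 51.13 and 48.02 FPKM in 186wt, 50.64, 49.66 and 47.35 in 343wt, 52.22, 52.76 and 53.84 in 444wt, and 50.45, 50.93 and 51.85 in 456wt. The libraries of 186wt overlapped those of each other sample number. The log2 difference between 444wt and 343wt was 0.11 ± 0.04 (SE), with an F-test adjusted p of 0.117 by limma, and only 2.32% of tested genes had a narrower range. Of its 6 pairs of sample numbers this one alone passed, with an adjusted p of 0.0295 (limma). Leaving out 186wt, or its library 3 alone, brought the adjusted p to 0.033 and 0.0453.

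Trim28 differed in all 6 pairs of sample numbers on the deposited scale and in 3 of them after each library was centred on its median. Its libraries had 191.51, 190.12 and 192.58 FPKM in 186wt, 180.97, 176.93 and 183.17 in 343wt, 214.36, 228.09 and 229.03 in 444wt, and 206.69, 202.71 and 210.65 in 456wt. No library of one sample number overlapped those of another. The level was 1.24-fold higher in 444wt than in 343wt (log2 difference 0.31 ± 0.03, SE, F-test adjusted p = 4.29e-06, limma).

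Atrx and Daxx, which act as a pair, both had their highest mean in 343wt and their lowest in 456wt. For Atrx the libraries had 31.45, 30.45 and 30.62 FPKM in 186wt, 30.67, 34.31 and 33.03 in 343wt, 31.41, 28.41 and 30.28 in 444wt, and 23.01, 27.91 and 25.96 in 456wt. The 3 libraries of 456wt were below all others, while the remaining sample numbers overlapped. Atrx was 1.276-fold higher in 343wt than in 456wt (log2 difference 0.35 ± 0.07, SE, F-test adjusted p = 0.00368, limma).

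The Daxx libraries had 56.61, 59.11 and 55.72 FPKM in 186wt, 56.00, 59.89 and 59.20 in 343wt, 46.41, 46.20 and 47.73 in 444wt, and 46.14, 44.60 and 47.23 in 456wt. They fell into 2 levels with a gap between them, with 186wt and 343wt above it and 444wt and 456wt below it. Daxx was 1.268-fold higher in 343wt than in 456wt (log2 difference 0.34 ± 0.03, SE, F-test adjusted p = 3.53e-06, limma). Atrx did not follow this split, since its log2 difference between 444wt and 186wt was -0.04 ± 0.07 where that of Daxx was -0.29 ± 0.03. The ratio of Atrx to Daxx was 0.54 in 186wt, 0.56 in 343wt, 0.642 in 444wt and 0.557 in 456wt.

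Markers of the cells in the fraction moved between the same sample numbers. All 9 Sertoli cell markers were lower in both 444wt and 456wt than in both 186wt and 343wt, as Daxx was, and none was at 0. Of the 8 spermatogonial markers 7 were higher in both 444wt and 456wt than in both others, as Trim28 and the 3 HP1 genes were by their means on the deposited scale. The same held for 5 of 5 markers of peritubular myoid cells, the contractile cells around the tubule, and for 3 of 4 red blood cell markers. It held for 1 of 12 meiotic and 1 of 6 spermatid markers, while 3 of 6 Leydig cell markers were lower in both. No macrophage or endothelial marker showed either pattern. How many of all genes did was not counted. On the deposited log2 scale the median gene was itself higher in 444wt and 456wt. It was higher by 0.10 and 0.08 than in 186wt, and by 0.14 and 0.11 than in 343wt. After centring neither Trim28 nor any of the 3 HP1 genes was higher in 456wt than in both 186wt and 343wt. The markers were not centred, so centred values of members cannot be set beside the marker values given here. The meiotic markers were highest in 444wt and lowest in 343wt by their sum, and so were Trim28 and Cbx1 on the deposited scale. After centring Trim28 and Cbx1 were both lowest in 456wt, and Cbx1 was highest in 343wt. Peritubular myoid markers, led by Acta2, were highest in 456wt, where their sum was 1112 FPKM against 253.3 in 343wt. The summed markers of Leydig cells ran from 16.07 FPKM in 444wt to 110.5 in 343wt, those of macrophages from 7.643 in 444wt to 33.34 in 343wt, those of endothelium from 13.28 in 444wt to 33.54 in 456wt, and those of red blood cells from 21.51 in 186wt to 124.2 in 456wt. Spermatid markers summed to between 2.38 and 4.303 FPKM, and among them Prm2 was at 0 in all 12 libraries. The part of the cell makeup in the differences of the 6 genes was not tested.

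The members were also compared for each pair of sample numbers. Between 343wt and 186wt 2 of 6 members passed, with 20.4% of all genes. Between 444wt and 186wt 4 of 6 passed, with 42.4% of all genes, and between 456wt and 186wt 5 of 6, with 41.4%. Between 444wt and 343wt 5 of 6 passed, with 47.9%, and between 456wt and 343wt 4 of 6, with 41.7%. Between 456wt and 444wt 3 of 6 passed, with 28.2%. Both for the members and for all genes, 343wt and 186wt were the pair with the fewest calls.

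The scaling of the libraries mattered to some of these differences. The median log2(FPKM + 0.1) differed between libraries by up to 0.22. When each library was centred on its median, 57.9% of all genes passed the F-test and again 5 of 6 members did, but not the same 5. Cbx1 passed (adjusted p = 0.00688, limma), because 456wt then lay below the other 3, and its difference between 444wt and 343wt changed sign to -0.031. Cbx5 no longer passed (adjusted p = 0.296), and its difference between 456wt and 343wt became -0.0052. Daxx, Atrx, Cbx3 and Trim28 kept their calls. Daxx was lower in 456wt than in 343wt by a log2 difference of -0.55 ± 0.03 after centring, and Atrx by -0.56 ± 0.07. The increase of Cbx3 in 444wt over 186wt was 0.33 ± 0.03, and that of Trim28 in 444wt over 343wt was 0.17 ± 0.03. Centring ended the call of Trim28 in 3 pairs of sample numbers, between 456wt and 343wt (from 0.20 to -0.013), between 456wt and 186wt (from 0.11 to -0.028) and between 343wt and 186wt (from -0.086 to -0.016). For Cbx3 the difference between 456wt and 343wt went from 0.056, which was not called, to -0.15, which was (adjusted p = 0.00117, limma). The call of Cbx3 between 444wt and 343wt ended with centring (from 0.21 to 0.071). The ranges of Atrx and Daxx then came close to that of the median gene, since 52.6% and 51.7% of tested genes had a narrower one. The changes of sign depended on the genes used for centring. With centring on genes that averaged 1 FPKM or more, chosen after the data were seen, neither sign changed. Cbx1 was then 0.05 higher in 444wt than in 343wt (F-test adjusted p = 0.392, limma). Cbx5 was 0.14 higher in 456wt than in 343wt (F-test adjusted p = 0.0282, limma). Calls for pairs of sample numbers were not examined on that scale. Before centring the median gene was 0.11 higher in 456wt than in 343wt.

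**Figure D4:**
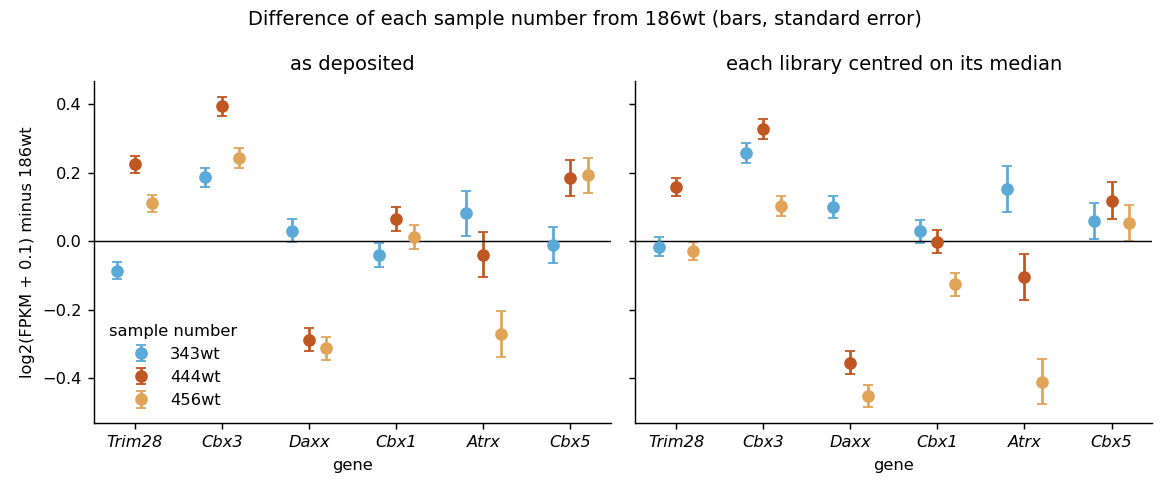
Difference of 343wt, 444wt and 456wt from 186wt in log2(FPKM + 0.1) for each gene, with standard errors from limma, on the deposited scale (left) and after each library was centred on its median (right). Daxx lies below 0 in 444wt and 456wt and Cbx3 lies above 0 in all 3 sample numbers on both scales, whereas the points of Cbx5 move toward 0 in 444wt and 456wt after centring.

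Ratios between members of one library do not depend on that scaling. The ratio of Trim28 to Daxx was 3.35 in 186wt, 3.09 in 343wt, 4.78 in 444wt and 4.49 in 456wt. Libraries of 186wt and 343wt gave at most 3.46 and those of 444wt and 456wt at least 4.46, so these did not overlap. The ratio of Cbx3 to Daxx was 1.66, 1.85, 2.67 and 2.44 in the same order, with no library of 186wt or 343wt above 1.89 and none of 444wt or 456wt below 2.31. Both ratios have Daxx as their divisor, and so carry the gap between its libraries described above. How often ratios of other genes show such a gap was not examined. The ratio of Cbx5 to Cbx1 moved less, from 0.395 in 186wt to 0.403, 0.43 and 0.448 in the others.

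The genes that work with the 6 members were taken as 6 lists with 58 distinct genes, all of which were in the table and passed the filter. Of the 58, 53 passed the F-test, that is 91.4% beside 58.2% of all genes. Of the 58, 57 averaged 1 FPKM or more, and of all genes at that level 75.8% passed, so part of the gap goes with the level. The contrast between 444wt and 343wt, the pair with the most calls, had 34 of the 58 higher in 444wt and 7 lower. Over all genes 30.4% were called higher in 444wt and 17.5% lower, and the median log2 difference was 0.14 over all genes and 0.19 over the 58. After centring 22 of the 58 were higher and 13 lower, with 18.8% and 24.6% over all genes. Among genes that averaged 1 FPKM or more, 39.8% were higher and 23% lower on the deposited scale, and 24.6% and 32.9% after centring. The counts of each list are to be read against these shares. Centring thus turned the split of all calls, from 63.5% higher in 444wt to 43.3%. In the same contrast the summed spermatogonial and meiotic markers were higher in 444wt and the summed Sertoli markers lower, as given above, and their part in the counts of these lists was not tested.

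The enzymes that methylate H3K9 were mostly higher in 444wt than in 343wt. All 6 passed the F-test, and 6 of 6 were higher in 444wt than in 343wt on the deposited scale and 5 of 6 after centring. Their median log2 difference was 0.37, and 0.23 after centring. Ehmt2, which encodes G9a, the main enzyme for H3K9me2 in euchromatin, had the highest level at 154.6 ± 17.4 FPKM (SD, n = 4). It had 140.7 FPKM in 186wt, 139.9 in 343wt, 175.9 in 444wt and 161.7 in 456wt. Suv39h1, an enzyme of pericentric H3K9me3, had 36.4 ± 6.66 FPKM and was 0.56 ± 0.03 higher on the log2 scale in 444wt than in 343wt (SE, adjusted p = 5.47e-08, limma). Setdb2 was the lowest of the list, at 17.13 ± 2.28 FPKM.

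The HP1 partners, among them chromatin assembly, DNA methylation and centromere proteins, were mostly higher in 444wt as well. Of 17 genes 15 passed the F-test, and 13 were higher and 0 lower in 444wt than in 343wt, with a median log2 difference of 0.44. After centring 10 were higher and 1 was lower, and the median was 0.30. Dnmt1, the maintenance DNA methyltransferase, had 70.5 FPKM in 186wt, 73.52 in 343wt, 99.89 in 444wt and 91.7 in 456wt. Uhrf1, which guides DNMT1 to newly copied DNA, had 47.44, 47.69, 71.84 and 66.6 FPKM in that order. Both were higher in 444wt and 456wt than in 186wt and 343wt. Hells, a remodeller needed for DNA methylation, was the highest of the list at 128.7 ± 25.9 FPKM, and Sgol1, which protects centromeric cohesion, was the lowest at 6.544 ± 1.36.

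Of the 14 partners of TRIM28 13 passed the F-test, and 9 were higher and 1 was lower in 444wt than in 343wt, with a median log2 difference of 0.14. After centring 4 were higher and 4 lower, near the shares over all genes. Rbbp7, a histone-binding subunit of the NuRD complex, had the highest level, with 189.6 FPKM in 186wt, 189.1 in 343wt, 215.2 in 444wt and 248.1 in 456wt. Hdac1, a deacetylase of the same complex, had 66.96, 68.45, 86.84 and 80.36 FPKM. Zfp809, a KRAB zinc finger protein that brings TRIM28 to retroviral DNA, was the lowest at 9.574 ± 0.783 FPKM, and its F-test adjusted p was 0.132 (limma). Of the 3 paralogues of TRIM28, Trim24 had 40.05 ± 2.22 FPKM, Trim33 15.24 ± 0.723 and Trim66 0.3567 ± 0.0566, so Trim28 lay above each of them. Trim24 and Trim33 passed the F-test, and Trim33 was lower in 444wt than in 343wt by a log2 difference of -0.09 ± 0.03 (adjusted p = 0.0438, limma), also after centring.

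The H3.3 deposition genes are those to which Atrx and Daxx are related by function. Of 10 genes 9 passed the F-test, and 3 were higher and 1 was lower in 444wt than in 343wt, with a median log2 difference of 0.04. Each averaged 1 FPKM or more, and of all genes at that level 39.8% were higher and 23% lower. After centring 2 were higher and 3 lower, and the median was -0.10. H3f3b, 1 of the genes for H3.3 itself, had 524.3 FPKM in 186wt, 605.2 in 343wt, 610.5 in 444wt and 584.9 in 456wt, and whether copies of it took reads was not examined. Ubn1, a subunit of the HIRA complex that deposits H3.3 in active genes, had 23.13, 24.4, 28.94 and 27.47 FPKM. Sp100, a protein of the PML bodies in which DAXX gathers, was the lowest at 1.346 ± 0.583 FPKM.

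The other chromodomain proteins were split. Of 9 genes 9 passed the F-test, and 4 were higher and 4 lower in 444wt than in 343wt, while after centring 2 were higher and 4 lower. Mphosph8, a reader of H3K9me3 in the HUSH complex, had the highest level, with 45.64 FPKM in 186wt, 43.26 in 343wt, 57.11 in 444wt and 48.28 in 456wt. Cbx2, a Polycomb reader of H3K27me3, had 24.27, 26.09, 36.31 and 34.29 FPKM, so it stood between Cbx1 and Cbx5 by its mean of 30.24 ± 5.95. Cbx7, also of the Polycomb group, was the lowest at 9.353 ± 1.75 FPKM. Cbx3 lay above each gene of this list in each sample number, while Cbx1 and Mphosph8 were at similar levels.

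**Figure D5:**
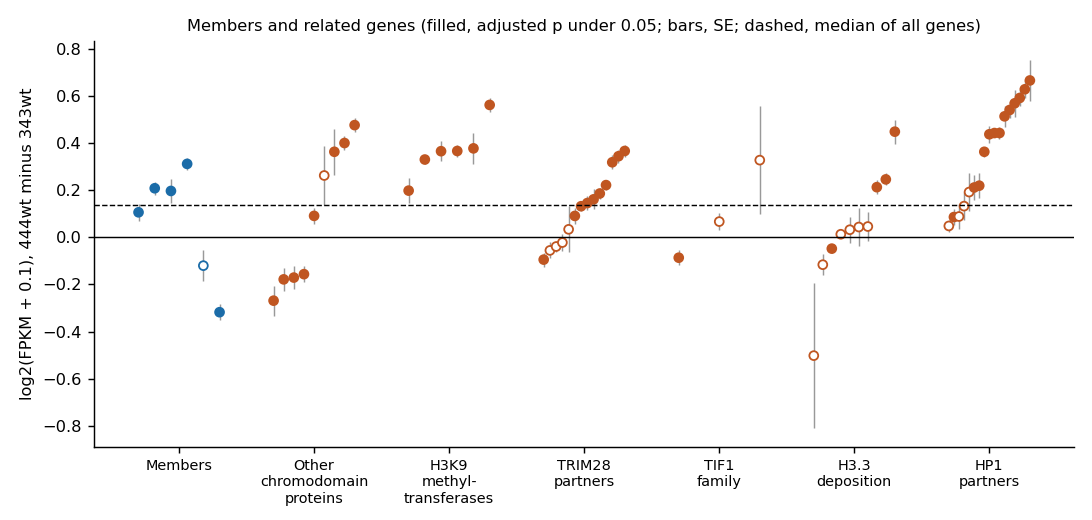
Difference between 444wt and 343wt in log2(FPKM + 0.1), with standard errors from limma, for the 6 members (left, in the order Cbx1, Cbx3, Cbx5, Trim28, Atrx, Daxx) and for the related genes by list, sorted within each list. Filled points passed at an adjusted p under 0.05, and the dashed line is the median of all genes tested at 0.14. All 6 H3K9 methyltransferases lie above the dashed line, and Daxx lies below 0.

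For each member the 3 genes with the most similar profile were taken from 14342 other genes that averaged 1 FPKM or more, by the root-mean-square difference of log2(FPKM + 0.1) over the 12 libraries after each gene was centred on its mean. Dnaja2, a co-chaperone, was nearest to Cbx3 with a difference of 0.0312, where Cbx3 itself deviated from its mean by 0.144. Its levels were 78.22, 85.59, 98.32 and 91.14 FPKM in 186wt, 343wt, 444wt and 456wt. Pgm2 and Erc1 followed at 0.0396 and 0.0397. Numa1, a protein of the spindle poles, was nearest to Trim28 at 0.0282, followed by Scaf8 at 0.031 and Dcaf15 at 0.034.

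Daxx was most like Ddit4, an inhibitor of mTOR signalling, at 0.0336, and Ddit4 had 51.76, 54.04, 42.16 and 42.07 FPKM in 186wt, 343wt, 444wt and 456wt. Arid2 at 0.0352 and 5430411K18Rik at 0.0353 came next. Atrx had no neighbour as near, since Bptf, a subunit of a chromatin remodeller, was at 0.0639, Odc1 at 0.0689 and Ttll4 at 0.0708. Among the members Atrx also had the largest SD between libraries of one sample number, 5.83% of the mean, and this spread enters the difference. Cbx5 was nearest to Ccdc132 at 0.0399, Xrcc5 at 0.0401 and Tomm7 at 0.044. Cbx1 was nearest to Vps11 at 0.0323, 2010321M09Rik at 0.0373 and Sf3b1 at 0.0379, but it deviated from its own mean by only 0.0528. The likeness is a description of 12 libraries from 4 sample numbers.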

How the data were processed

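Messenger RNA of B6 germ cells was sequenced by the authors as paired reads of about 100 bases. They aligned reads with Bowtie 0.12.9 to the NCBI build 37 (mm9) transcriptome and estimated FPKM per gene with RSEM 1.2.8. Reads with 2 or more mismatches were removed, and a fragment length of 280 ± 50 bases was set. A strand setting is not given in the sources used here. The deposited FPKM, with 2 decimals, were used as they stand, all 12 columns were assigned to a sample number by name, and no counts were used. Genes averaging 0.1 FPKM or more were tested on log2(FPKM + 0.1) with limma 3.58.1 in R 4.3.3 (lmFit, eBayes with trend, Benjamini-Hochberg, two-sided). The pseudocount makes fold changes of low genes smaller. The test was checked on simulated data of the same 20795 genes, in which 200 genes were raised 1 log2 unit in a single sample number. Of these 65.5% were found, with 5.07% of calls false. Far fewer genes were changed there than passed in the data, so the share found does not carry over to the data. Depth of the first library was estimated from the steps between low FPKM of genes with 300 to 500 bases, with 95% bounds of 14.516 and 14.635 M fragments (M, mega). The other libraries were set relative to it by the ratios of low FPKM values. The bounds are those of a slope over genes, so they cover only the scatter between genes. Copies were found by BLAST 2.17.0 on GENCODE M1 transcripts, and 37205 of 37620 rows had an annotated position. Atf7ip has 2 rows, of which the higher was used. The marker Meiob was not matched by name. Named genes were the members, the 3 nearest in profile to each, the copies, and from each related list the highest, the lowest and the pair with the smallest F-test p, apart from Gm13118, which is below the limit of 0.1 FPKM and was named to complete the copies. The head-to-head neighbours Hnrnpa2b1, Hnrnpa1 and BC051226 and the markers Clu, Acta2 and Prm2 fall outside this rule and were chosen after their values were seen. The members and the gene lists were chosen with earlier results of these data known. The alternatives were other pseudocounts (0.01 and 1), filters and scalings, eBayes without trend, the library number as a block, leaving out libraries or sample numbers, medians in place of means, and adding the copies. Centring on genes that averaged 1 FPKM or more was added after the data were seen. The other samples of the series, from ChIP-seq and Affinity-seq, were not analysed here.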

Additional observations from a re-analysis of the deposited data

Results flagged for a closer look

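Dixon's test for 1 sample far from the others was applied to 30 values over the 4 sample numbers, namely the members, their shares, neighbours and copies, the median level of each marker list and the library depth. Chance sets about 1 in 20 such values apart, which is 1.5 here, and 3 were set apart. None of them was the level or share of a member. Gm13118, a copy of Cbx3, had 0.1367 FPKM in 456wt and was listed at 0 in the other sample numbers, and this value came from a single library with 0.41 FPKM. The median of the round spermatid markers was 0.335 FPKM in 444wt and between 0.075 and 0.08833 in the others. The median of the endothelial markers was 6.483 FPKM in 456wt and between 2.267 and 2.813 in the others. These 2 marker lists are at low levels beside those of the germ cells, and their part in the values of the members was not tested.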

How the results depend on the processing

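Of 255 recomputed values of 21 results, 249 kept their direction and their side of the threshold, or moved by less than 1 SD. Part of these could not do otherwise, so the count is no measure of stability. Leaving out a single sample number cannot move a mean level or share by 1 SD, and rescaling a library does not alter the ratios within it. A log2 difference between sample numbers also stays the same when libraries of the others are left out. Centring each library on its median reversed the difference of Cbx1 between 444wt and 343wt (-0.0307) and that of Cbx5 between 456wt and 343wt (-0.0052). The log2 ratio of Daxx to Cbx1 reversed without 186wt (-0.028) and without 343wt (-0.0519), and leave-one-out values ran from -0.0519 to 0.0896. Cbx1 passed the F-test without library 3 of 186wt and without 186wt as a whole (adjusted p = 0.0453 and 0.033, limma), with its log2 difference between 444wt and 343wt at 0.1055 in both. Over all leave-one-out settings that difference ran from 0.0779 to 0.1263. With the library number as a replicate block 11774 genes passed, against 12107, and no call of a member changed. Libraries with the same number in different sample numbers had deviations that correlated by -0.065 to 0.128 over 18 pairs (mean 0.0027), so the numbers do not pair the libraries. Centring on genes that averaged 1 FPKM or more, which was chosen after the data were seen, changed no F-test call of a member. Adding the copies to Cbx3 moved the HP1 shares and the order of the members by less than 1 SD, and the F-test was not run with the copies added. Depth does not limit the members, but a copy below 1 FPKM rests on a few fragments.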
